A study of Homo sapiens and Mus musculus with 9 samples.

Results

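APP, FAT1, SPTBN1, CLDN4 and SPINT2 encode proteins of the cell membrane or of the layer beneath it, and they were examined as carriers of several RNA peaks in a pregnane X receptor (PXR) experiment. The peaks were all those of the 3 human peak lists whose summit, the base of highest read pile-up, fell within the GRCh38 (hg38) span of one of the genes. This gave 33 of 3706 human peaks, of which 0 of 46 were in the KO-named LS174T list, 26 of 2103 in the WT-named LS174T list and 7 of 1557 in the HepG2 list. The genes were chosen by the number of peaks they carried in these lists, so the numbers themselves are given as a description and were not tested.

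The study used enhanced UV crosslinking and immunoprecipitation with sequencing (eCLIP), which recovers RNA fragments that UV light has joined to a protein, here PXR (gene NR1I2), a nuclear receptor for drugs and bile acids. Its 9 samples were PXR-antibody immunoprecipitates (IPs) from PXR knockout LS174T cells (1) and wild-type LS174T cells (1) with a wild-type input (1), IPs with an antibody to the HA tag from HepG2 cells (2) with an input (1), and PXR-antibody IPs from liver of humanized PXR mice (2) with an input (1). LS174T is a human colorectal adenocarcinoma line, grown here as wild type and as a PXR knockout whose clonal origin the labels do not give, and HepG2 is a human hepatocellular carcinoma line whose HA-tagged construct they do not describe. Both lines were kept in EMEM with serum and antibiotics and irradiated at 254 nm with 400 mJ per cm2, and no drug is named in the labels. The gene that encodes PXR, NR1I2, had 0 peaks in the KO-named, WT-named and HepG2 lists alike, so the knockout could not be checked there. For the LS174T lists the record and their own names disagree. The list whose name and peak names read wild-type IP is tied by the record to the wild-type input. The list whose names read knockout IP is tied by it to the wild-type IP. They are called the WT-named and KO-named lists after their names, and no direction between genotypes is drawn. If the record is right, the LS174T peaks described below come from an input and not from a PXR IP. The HepG2 list stands for 2 IPs, and whether they were pooled was not stated. Each list is thus a single set of values without replicate spread. Differences between LS174T and HepG2 compare 2 lists that also differ in antibody, tag and number of libraries. By the record they also differ in being an input or an IP, and these cannot be told apart from the cell line.

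The 5 proteins have distinct tasks. APP, the amyloid precursor protein, is a single-pass membrane protein that secretases cut. FAT1 is a very large atypical cadherin of cell contacts, and SPTBN1 is a beta spectrin of the scaffold under the plasma membrane. CLDN4 is a claudin of epithelial tight junctions, and SPINT2 is a membrane-bound Kunitz inhibitor of serine proteases. All of them are made in epithelia of the gut, where junction proteins and their proteases maintain the barrier. PXR is best known as a DNA-binding transcription factor, and eCLIP asks instead where RNA lies next to it.

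As a check of the cell labels, 6 of 10 colon epithelium markers carried a peak in the WT-named LS174T list and 2 of 10 in HepG2, while 0 of 10 hepatocyte markers (among them ALB, APOA1 and AFP) carried one in either list. Over all 20037 coding genes 7.23% carried one in the WT-named list and 5.45% in HepG2, so few of 10 genes carry one by that share. In LS174T the marker peaks reached 68 reads in TFF3, 50 in LGALS4, 40 in PHGR1 and 38 in EPCAM. In HepG2 they were EPCAM with 11 reads and CDH17 with 15. The HepG2 label could thus not be borne out by these markers, and the part of this in the comparisons between the lists was not tested. Read numbers were worked out from the deposited fold enrichment and −log10 p of each peak. The fold was taken as a ratio to reads around the peak, so no peak is read as enriched over an input. The median was 11 reads per peak in the WT-named list and 9 in HepG2, the lowest was 3 in both, and total reads per library are not known.

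In each of the 4 genes with an annotated transcription start in the table used, the first peak followed a start closely, so the letters around these starts are given for orientation. The lines below show 100 bases before and 30 bases after a start, read in the direction of transcription from the RefSeq start table for GRCh38.p14, with the transcribed bases in capitals. SPTBN1 and APP are shown with both annotated starts, because their peaks followed one of them more closely than the other. FAT1 is shown with the outer of its 2 annotated starts, which its first peak followed, and CLDN4 with its single start. The inner FAT1 start, at base 186723856, is not shown, and the nearest summit after it was 14700 bases away. SPINT2 has no entry in that table.
SPTBN1, start at base 54558383 (+ strand, chr2:54558283-54558412): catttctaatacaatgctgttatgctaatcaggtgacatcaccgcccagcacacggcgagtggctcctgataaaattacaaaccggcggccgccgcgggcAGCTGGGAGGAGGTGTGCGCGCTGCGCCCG
SPTBN1, start at base 54456327 (+ strand, chr2:54456227-54456356): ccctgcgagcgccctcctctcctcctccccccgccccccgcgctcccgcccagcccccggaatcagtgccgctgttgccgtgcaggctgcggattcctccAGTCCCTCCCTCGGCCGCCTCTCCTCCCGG
APP, start at base 26170770 (- strand, chr21:26170741-26170870): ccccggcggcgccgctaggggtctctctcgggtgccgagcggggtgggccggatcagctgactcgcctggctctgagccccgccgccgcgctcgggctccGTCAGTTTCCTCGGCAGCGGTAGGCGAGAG
APP, start at base 26171128 (- strand, chr21:26171099-26171228): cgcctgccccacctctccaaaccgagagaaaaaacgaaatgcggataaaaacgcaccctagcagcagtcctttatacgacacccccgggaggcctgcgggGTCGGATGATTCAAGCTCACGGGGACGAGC
FAT1, start at base 186726696 (- strand, chr4:186726667-186726796): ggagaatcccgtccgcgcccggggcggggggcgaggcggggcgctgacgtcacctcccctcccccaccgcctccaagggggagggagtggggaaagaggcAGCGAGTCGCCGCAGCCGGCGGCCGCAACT
CLDN4, start at base 73830996 (+ strand, chr7:73830896-73831025): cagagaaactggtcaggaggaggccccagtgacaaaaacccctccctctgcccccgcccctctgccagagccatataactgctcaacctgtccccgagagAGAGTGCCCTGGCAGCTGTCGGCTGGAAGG

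These starts differed in base composition. Over the full 300 bases of the table, G and C made up 69.7% at the inner SPTBN1 start, 77.3% at the outer SPTBN1 start, 77.3% at the inner APP start, 49.3% at the outer APP start, 77.3% at the FAT1 start shown and 59.0% at the CLDN4 start. The median over all 35116 starts in the table was 58.7%. The GC box letters GGGCGG were searched on both strands. They occurred 2 times at the inner SPTBN1 start, 7 at the outer one, 2 at the FAT1 start shown, 1 at the CLDN4 start and at neither APP start. Of all starts in the table, 45.0% had these letters. The inner FAT1 start, which is not shown, had 76.0% G and C and these letters 4 times. The TATA box letters TATAAA were found once, at the outer APP start, against 11.5% of all starts. In the bases printed for that start they stand only as the reverse complement TTTATA, against the direction of transcription. The half-site AGTTCA, of the kind that PXR is known to bind in DNA, was in none of the 7 member windows and in 10.4% of all windows, which says only that these letters are missing there.

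APP had the widest-spaced peaks. The gene covers 290.6 kb of the minus strand (chr21:25880550-26171128), and the KO-named list held 0 peaks in it. The WT-named list held 7, against 1 in HepG2. Among peaks of at least 10 reads it was 1 in each, so the difference in number and the spacing in APP rest on peaks of 7 to 9 reads. From the 5′ end to the 3′ end the LS174T summits rested on 18, 9, 9, 8, 7, 9 and 9 reads, and the HepG2 summit on 17. The first peak was thus at least 2 times as deep as each of the others, and it was the one that HepG2 shared. It lay at chr21:26170417-26170733 in LS174T and at chr21:26170414-26170725 in HepG2, and it began 37 and 45 bases after the inner APP start printed above. The other 6 summits lay at 41.3%, 51.4%, 67.5%, 91.6%, 96.2% and 99.8% of the gene from its 5′ end, the last of them 583 bases before the annotated end.

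Gaps between neighbouring APP summits were 119591, 29155, 46778, 70014, 13349 and 10580 bases, with a median of 37966.5 bases. The widest gap, between the start peak and the second, took up 41.2% of the gene, and the narrowest ones were the last. Reads at the 5 inner APP peaks stood alone: they made up 64.3% to 100% of all reads in the 10 kb window that the peak caller uses as background. At the last peak the share was 28.1% (9 of 32 window reads), and at the first 78.3% in LS174T and 70.8% in HepG2.

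FAT1 spans 138.9 kb of the minus strand (chr4:186587794-186726696). It carried no peak in the KO-named list and 7 in the WT-named list, against none in HepG2. The LS174T summits rested, from 5′ to 3′, on 24, 17, 11, 10, 13, 16 and 18 reads, so the outermost peaks at either end were the deepest and the middle ones the shallowest. The first peak (chr4:186726326-186726609) began 87 bases after the start printed above and had a deposited fold enrichment over local background of 14.9. The last one (chr4:186588296-186588981) was 686 bases wide, the widest of the member peaks, and its summit lay 674 bases before the gene end.

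The inner FAT1 summits lay at 12.6%, 64.8%, 65.3%, 81.8% and 88.5% of the gene. Its gaps measured 17307, 72486, 629, 22903, 9403 and 15267 bases, with a median of 16287 bases. A stretch of 52.2% of the gene was without a peak, and directly after it came a close pair of summits 629 bases apart. The second and sixth peaks held 16.3% and 17.2% of the reads in their windows (104 and 93 reads), so they rose from broader coverage than the inner APP peaks did.

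SPTBN1 spans 215.1 kb of the plus strand (chr2:54456327-54671446) and showed a different layout over that span. The KO-named list held no peak in it and the WT-named list 7, against none in HepG2. No summit lay in the 5′ part of the span. The 7 summits were at 47.6%, 66.4%, 72.5%, 80.3%, 80.4%, 81.4% and 94.4% of it, so that the peaks covered 46.7% of the gene from first to last, against 99.6% in APP and 99.3% in FAT1. The first peak (chr2:54558475-54558988) began 92 bases after the inner start, and the nearest summit after the outer start was 102479 bases away. The 46.7% thus counts the part of the span before the inner start, where no summit lay. From the first summit to the gene end there were 112640 bases, and the summits covered 100504 of them.

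The SPTBN1 summits rested on 27, 9, 9, 30, 20, 21 and 13 reads. The deepest was therefore not the start peak but the fourth (chr2:54628993-54629213), the first of 3 summits within 2338 bases. Gaps were 40413, 13121, 16785, 247, 2091 and 27847 bases, with a median of 14953 bases. The 247-base gap was the shortest in any member gene. In this cluster the windows held 156 to 184 reads and the summits 10.9% to 16.5% of them. The 10.9% at the fifth peak was the lowest share at any member peak.

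**Figure D1:**
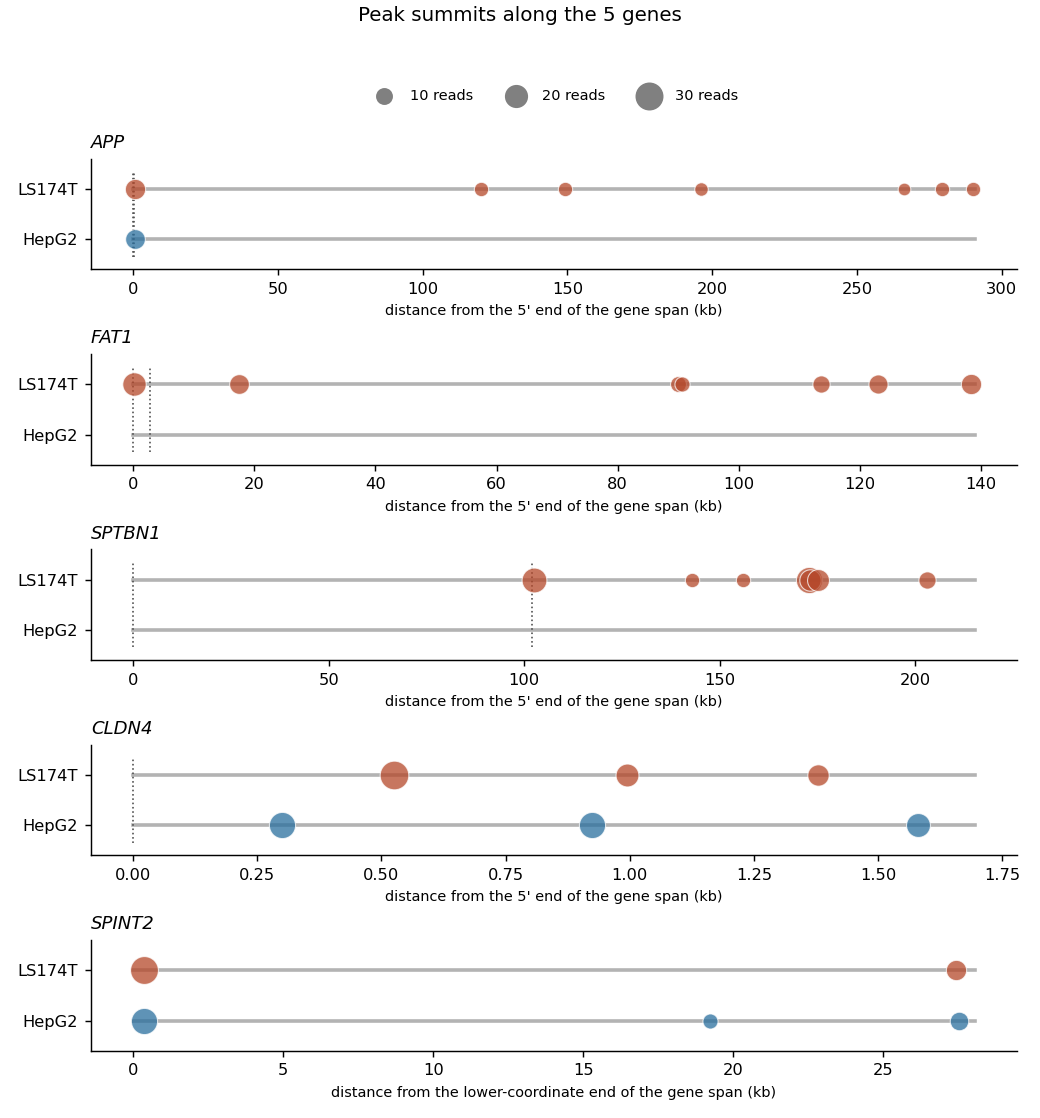
Summits of the WT-named LS174T peaks (upper line) and the HepG2 peaks (lower line) along each gene, with distance in kb on the horizontal axis, circle area in proportion to the reads at the summit and dotted lines at annotated starts. APP, FAT1 and SPTBN1 carry 7 peaks each in LS174T against 1, 0 and 0 in HepG2, while CLDN4 has 3 in both and SPINT2 has 2 in LS174T and 3 in HepG2.

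CLDN4 is short, 1695 bases on the plus strand (chr7:73830996-73832690), and peaks tiled it in both lists. The KO-named list held none. The WT-named list held 3 peaks with 36, 23 and 20 reads, and the HepG2 list 3 peaks with 30, 30 and 25 reads. Counted as 1 where summits lay within 1000 bases of each other, they made 1 peak in each list. In LS174T the first summit was the deepest, and in HepG2 the first and second were equal. Gaps between summits were 469 and 384 bases in LS174T and 623 and 657 bases in HepG2. The 10 kb windows of the 3 CLDN4 peaks cover nearly the same stretch, with 160 reads each in LS174T and 168 to 169 in HepG2.

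The overlapping CLDN4 peaks did not have the same summits. Those of LS174T and HepG2 were 225, 71 and 202 bases apart, although the peaks overlapped over 557, 177 and 353 bases. The first peak began 117 bases after the start in LS174T (chr7:73831113-73831740) and 138 bases after it in HepG2 (chr7:73831134-73831690).

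SPINT2 spans 28043 bases (chr19:38264573-38292615), with all its peaks on the plus strand. It had none in the KO-named list. It had 2 in the WT-named list with 34 and 18 reads, and 3 in HepG2 with 30, 10 and 15 reads. The outer peaks were shared and the middle one was found in HepG2 alone. The first peak (chr19:38264620-38265113 in LS174T) began 47 bases inside the lower end of the gene span and had the highest fold of all the member peaks, 16.2 in LS174T and 15.3 in HepG2, with summits 3 bases apart. The last LS174T summit lay 610 bases before the upper end. The summits were 27060 bases apart in LS174T, and 18848 and 8307 bases apart in HepG2, where the middle peak (chr19:38283663-38283876) lay at 68.6% of the span from the lower end.

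**Figure D2:**
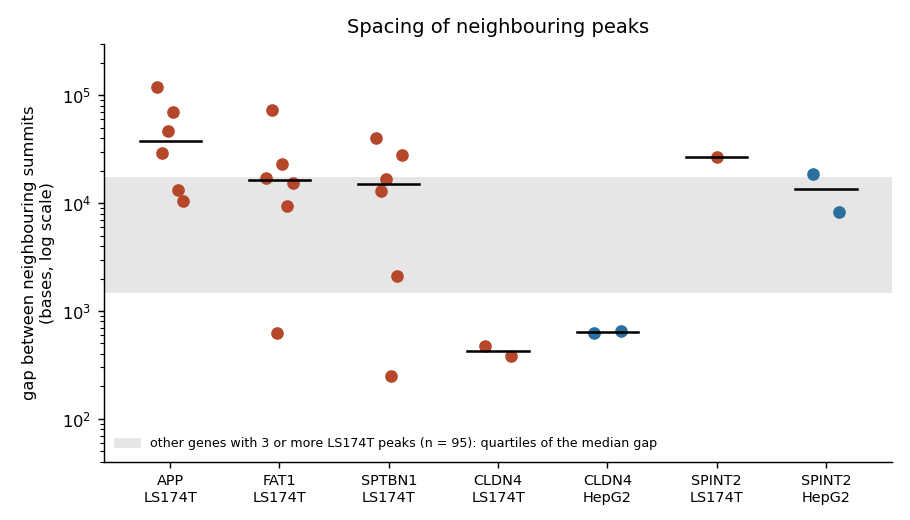
Distance between neighbouring summits in bases on a log axis, 1 dot per gap, for LS174T (WT-named list) and HepG2, with the median of each gene as a line. The grey band gives the quartiles of the median gap over the 95 other coding genes with at least 3 LS174T peaks (1512 to 16992 bases). In LS174T the APP median and the single SPINT2 gap lie above it and the CLDN4 median below it. SPINT2 has 2 LS174T peaks, fewer than the 3 needed for the band, and the HepG2 dots have no band of their own.

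The 7 peaks of APP, FAT1 and SPTBN1 were the highest number in any protein-coding gene of the lists. Of 1448 coding genes with a WT-named peak, 0.345% carried 7 and 20.6% carried at least 2. Of 1092 with a HepG2 peak, 8.97% carried at least 2. The rule used these counts, so nothing is read from them. The median gaps of 37966.5 bases in APP, 16287 in FAT1 and 14953 in SPTBN1 stood beside 6640 bases over the other coding genes with at least 3 WT-named peaks, 95 in all, whose median length was 22563 bases. For the 13 of these that were at least 100 kb long the median gap was 39804 bases, near that of APP and wider than those of FAT1 and SPTBN1. Those genes needed only 3 peaks, against 7 in each member, and more peaks in a span make narrower gaps. The gaps are thus not compared at a like number of peaks. The stretch from first to last summit, 99.6% in APP, 99.3% in FAT1 and 46.7% in SPTBN1, had a median of 88.5% in those 13 genes. The SPTBN1 value depends on the span used, since it counts the part before the inner start, where no summit lay.

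Strand was not used in choosing the peaks. In the 4 genes with a strand in the start table, 24 of 24 WT-named peaks (100%, exact 95% interval 85.8 to 100%) and 4 of 4 HepG2 peaks (interval 39.8 to 100%) lay on the strand of the gene. Over all peaks in a single coding gene of known strand the share was 94.2% in the WT-named list and 85.3% in HepG2. Both background values lie within the intervals of the member genes. No other annotated gene covered any of the 33 summits, and none of the lists held a further peak within 5000 bases outside the 5 spans.

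In every member gene with a WT-named peak and an annotated start, 4 of 4, a summit lay within 1000 bases after a start, at 170 bases in APP, 233 in FAT1, 423 in SPTBN1 and 525 in CLDN4. In HepG2 this held for 2 of 2, at 204 bases in APP and 300 in CLDN4. Among all coding genes with a peak on their strand, 64.7% in the WT-named list and 66.4% in HepG2 had such a peak, so a peak after the start was common. The start peak was the deepest WT-named peak in APP and FAT1, and in SPTBN1 it was second to the fourth peak by reads (27 against 30) but first by fold (11.3 against 6.68). Of all coding genes of at least 20 kb with at least 2 WT-named peaks on their strand, 72.6% had one after a start, and in 37.9% it was the deepest.

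**Figure D3:**
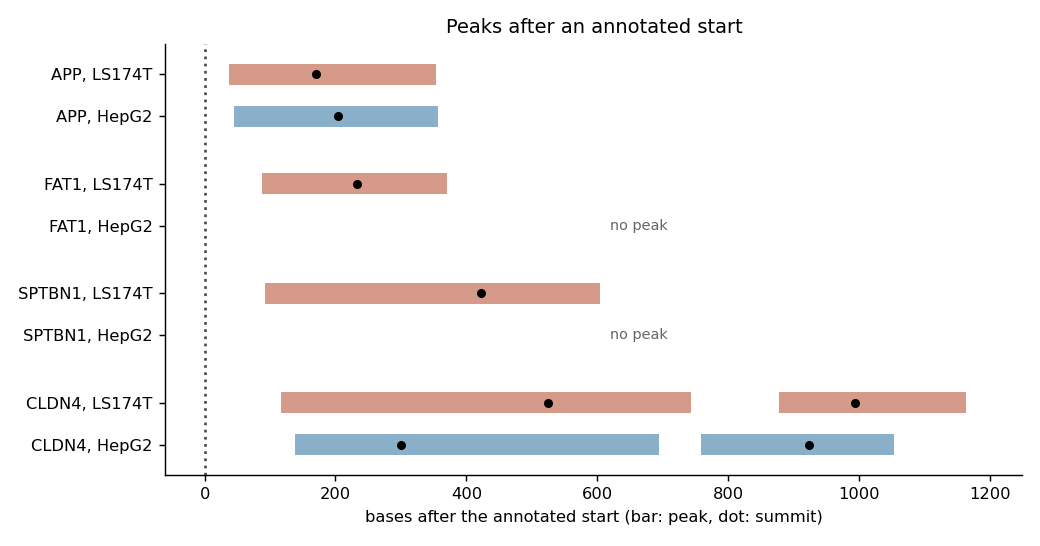
Peaks shortly after the annotated start of 4 genes (dotted line), as bars from peak edge to peak edge with a dot at the summit, LS174T (WT-named list) above HepG2. For SPTBN1 and APP the start is the inner one, and for FAT1 the outer one. The first LS174T peaks begin 37 to 117 bases after the start, HepG2 peaks in APP and CLDN4 begin 45 and 138 bases after it, and FAT1 and SPTBN1 have none in HepG2.

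At the other end, 3 of 4 genes of known strand (APP, FAT1 and CLDN4) had a WT-named summit within 1000 bases of the annotated gene end, and of the 2 with HepG2 peaks, CLDN4 did. Within 500 bases, a window chosen after seeing the data, 1 of 4 had a WT-named summit, so the count rests on the window. Over all coding genes with a peak on their strand the share within 1000 bases was 24.3% in the WT-named list and 18.3% in HepG2. The whole of CLDN4 is under 2000 bases long, so its start and end windows meet. Of the 24 member peaks, 5 (20.8%) lay within 1000 bases after a start and 4 (16.7%) within 1000 bases of an end, where over all such peaks the shares were 50.6% and 20.2%. The other 16 peaks, all in APP, FAT1 and SPTBN1, lay in neither place.

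The 16 inner peaks were near the other inner peaks of the list in width and depth. Their median width was 200.5 bases, 9 of them were 200 or 201 bases wide, where 200 was the shortest width of any WT-named peak on the strand of a coding gene, and the range reached 613 in the SPTBN1 cluster. They rested on 7 to 30 reads with a median of 10.5. Over all coding genes, WT-named peaks after a start had a median width of 222 bases, those at the 3′ end 257 and those elsewhere 209. The peaks elsewhere had a median of 12.5 reads. Exons and introns were not used here, so whether the inner peaks lie in exons is not stated.

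Between the cell lines, peaks in the 3 long genes and those in the 2 shorter ones are given apart, a grouping made after their values were seen and not tested. Of the 21 WT-named peaks in APP, FAT1 and SPTBN1, 1 overlapped a HepG2 peak by at least 1 base on the same strand (4.76%, exact 95% interval 0.120 to 23.8%). Of the 5 in CLDN4 and SPINT2, 5 did (interval 47.8 to 100%). Together this was 6 of 26 (23.1%, interval 8.97 to 43.6%), where 25.5% of all WT-named peaks in coding genes overlapped a HepG2 peak. In the other direction 6 of the 7 HepG2 member peaks met a WT-named peak (85.7%, interval 42.1 to 99.6%), against 39.6% of all HepG2 peaks in coding genes. The members were chosen for their peaks and all carry WT-named ones, whereas the 39.6% includes genes without any. The choice thus favours a high share here, and nothing is read from the difference. Both member shares also depend on the rule for sharing. With summits required within 100 bases, they were 15.4% of the WT-named and 57.1% of the HepG2 member peaks. The CLDN4 pairs with summits 225 and 202 bases apart then no longer counted. The share over all coding genes is not given for that rule. The intervals cover counting error only, and peaks of 1 gene share its RNA. FAT1 and SPTBN1 had no HepG2 peak, and of all coding genes with at least 3 WT-named peaks 50.5% had none. Among the 9 genes with at least 6 WT-named peaks it was 3, namely FAT1, SPTBN1 and PIGR, the polymeric immunoglobulin receptor gene.

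Sharing at like depth is given beside this. Of the 8 member peaks with fewer than 10 reads, 0 had a HepG2 partner, against 143 of 753 WT-named peaks of that depth in coding genes. With 10 to 14 reads it was 0 of 4 member peaks, against 23.1% of all. With 15 to 19 reads it was 2 of 5, in APP and SPINT2, against 32.5%. With 20 to 29 reads it was 2 of 6, both in CLDN4, against 27.6%. With 30 to 49 reads it was 2 of 3, in CLDN4 and SPINT2 but not at the fourth SPTBN1 peak, against 31.9%. The lists hold called peaks only, so HepG2 reads at the 20 unmatched sites are not known. Amount of the RNA and amount of PXR on it cannot be told apart in these lists. Nor can cell line and library type, since the record ties the WT-named list to an input.

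At the 6 overlapping pairs the read numbers of LS174T and HepG2 differed by less than their counting error. The APP start peak had 18 reads in LS174T and 17 in HepG2, a ratio of 1.06 (exact 95% interval 0.515 to 2.19). The CLDN4 peaks had ratios of 1.20 (0.719 to 2.02), 0.767 (0.425 to 1.37) and 0.800 (0.421 to 1.5). The SPINT2 pairs had 34 against 30 reads, a ratio of 1.13 (0.673 to 1.92), and 18 against 15, a ratio of 1.20 (0.571 to 2.56). Every one of these 6 intervals held the median ratio of 1.08 over 464 overlapping pairs in coding genes (quartiles 0.714 and 1.76). No member pair was at least 2 times above that median or at most 0.5 times it, where 17.2% and 14.2% of all pairs were. With 15 to 36 reads per site the intervals together ran from 0.421 to 2.56, so smaller differences were not detectable at this depth.

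**Figure D4:**
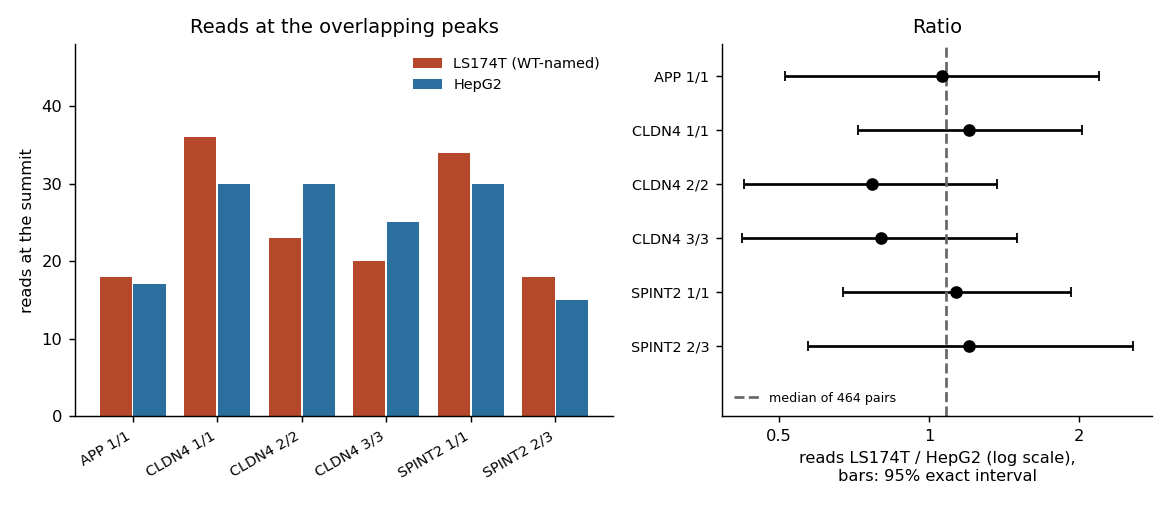
Left, reads at the summit in the WT-named LS174T list and in HepG2 for the 6 overlapping peak pairs (labels give the gene and the peak number from the 5′ end, or for SPINT2 from the lower end, in LS174T and HepG2). Right, the ratio of LS174T to HepG2 reads with its exact 95% interval on a log axis and the median over 464 pairs as a dashed line; all 6 intervals include that median of 1.08.

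The 10 kb windows gave the same order of size with more reads behind it. Around CLDN4 the window held 160 reads in LS174T and 169 in HepG2 at the first peak, a ratio of 0.947 (exact 95% interval 0.758 to 1.18). At the SPINT2 first peak it was 58 and 51 reads (ratio 1.14, interval 0.767 to 1.69), and at the APP start 23 and 24 (ratio 0.958, interval 0.517 to 1.77). The median window ratio of the 464 pairs was 0.971.

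None of the 26 WT-named member peaks overlapped a KO-named peak, where 1.26% of the WT-named peaks in coding genes did and 0.11% of all coding genes held a KO-named peak. With so few KO-named peaks in all, an absence from that list was the usual state.

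Related genes carried peaks as well, by lists compiled with earlier results of these data known. Among 31 further tight junction genes, 4 had a WT-named peak and 6 a HepG2 peak, where 7.23% and 5.45% of all coding genes had one. These shares count peaks of any depth and are the background for each list below. With CLDN4 counted, 7 tight junction genes had a HepG2 peak, and 6 without peaks opposite to a known gene strand. CLDN3, another claudin, reached 15 reads in LS174T and 55 in HepG2, CLDN7 42 in LS174T with no HepG2 peak, and the polarity gene PARD6B 30 in HepG2 with no LS174T peak. Among 29 further adherens junction and desmosome genes, 11 had a peak in LS174T and 5 in HepG2. With FAT1 counted and at least 10 reads per peak it was 6 in LS174T and 4 in HepG2, against 12 and 5 without that minimum. The share of all coding genes at that minimum was not worked out, here or for the lists below. The beta-catenin gene CTNNB1 reached 25 reads in LS174T and 9 in HepG2, the plakoglobin gene JUP 18 in LS174T alone, and the E-cadherin gene CDH1 10 in LS174T and 17 in HepG2.

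For the lists in this paragraph too, 7.23% of all coding genes had a WT-named peak and 5.45% a HepG2 peak of any depth. Of 22 further genes of the spectrin skeleton, 4 had a WT-named peak and 3 a HepG2 peak, and with at least 10 reads per peak 1 had a HepG2 peak. EZR, which links actin to the membrane, had 24 reads in LS174T and no HepG2 peak. The single LS174T peaks placed in EPB41L2 (17 reads) and EPB41 (12 reads) lay on the strand opposite to the gene. So did the single HepG2 peak placed in EPB41L2 (6 reads). Without peaks opposite to a known gene strand, 2 spectrin skeleton genes had a HepG2 peak. Of 22 further APP family and processing genes, 5 had a peak in LS174T and 2 in HepG2. With APP counted, 6 had one in LS174T, and 3 with at least 10 reads per peak. The APP homologue APLP2 had 9 reads in LS174T and 20 in HepG2, and the protease genes BACE2 (15 reads) and ADAM9 (12 reads) had peaks in LS174T alone. Of 18 further genes of surface proteases and Kunitz inhibitors, 5 had a peak in LS174T and 2 in HepG2. Among them the adhesion molecule gene EPCAM had 38 reads in LS174T and 11 in HepG2. SPINT1, which encodes another Kunitz-type inhibitor of surface proteases, had 3 peaks of up to 12 reads in LS174T and none in HepG2.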

How the data were processed

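The deposited files analysed here are peak lists. The submitters' processing notes name cutadapt, BWA, MACS2 and hg38; their versions and settings are not given in the sources used here. Each peak has the authors' score, fold enrichment (a ratio to local background), −log10 p-value and −log10 q-value, as deposited. As solved below, that background is the 10000 bp window around the peak, which includes the peak's own reads. No input reads enter it, so the fold is not read as enrichment over an input. Peak names show that either strand was called by itself, per the file's own entries. The liver list was not used here.

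Reads at a summit (n) and in its 10000 bp window (k) were solved from the fold, (n + 1) / (λ + 1), and the Poisson p of more than n reads, with λ of 0.02 k. A single solution was found for all but 5 WT-named and 4 HepG2 peaks, none of them in the member genes. On simulated peaks 2098 of 2098 were recovered for the WT-named list and 1553 of 1553 for HepG2. Reads may include PCR copies, so the Clopper-Pearson 95% intervals cover counting error only.

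Gene spans come from the RefSeq table for GRCh38.p14 and strands and starts from its start table. Positions are 1-based. Peaks overlapped when they shared at least 1 base on the same strand, and the partner with the nearest summit was used. No test between conditions was run, since no list holds replicate values. Named genes are the 5 members, the gene nearest to each in its pair of peak counts (ties by span), and up to 4 genes of highest reads per list. Members and lists were chosen with earlier results of these data known, and the description by starts and ends was added after the peaks were seen. Python 3.11.15 with numpy 2.4.6, scipy 1.17.1 and matplotlib 3.10.9 was used.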

Additional observations from a re-analysis of the deposited data

How the results depend on the processing

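Of 178 alternative values, 52 belonged to a count of 0, which nearly all the alternatives could only leave at 0. Of the other 126, 118 stayed within 1.5 times the count, or within the interval or spread of the value, that is reported above. With at least 10 reads per peak, APP kept 1 WT-named peak, adherens junction genes with a WT-named peak (members included, as in the counts after it) numbered 6, APP family genes with one 3, and spectrin skeleton genes with a HepG2 peak 1. With summits within 1000 bp counted as 1, CLDN4 had 1 peak in each of the LS174T and HepG2 lists. With peaks on the gene's strand only, 3 spectrin skeleton genes had a WT-named peak. With an end window of 500 bases, chosen after seeing the data, 1 member had a WT-named peak near its 3′ end. These follow from removing or joining peaks. No paired analysis was possible because the lists hold no values per replicate, and leaving out a replicate was not possible for the same reason.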

Other observations

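The 5 coding genes with 7 WT-named peaks differed in length. APP, FAT1 and SPTBN1 measured 290579, 138903 and 215120 bases and carried 2.41, 5.04 and 3.25 peaks per 100 kb, whereas PIGR, the polymeric immunoglobulin receptor, measured 17945 bases and the enolase gene ENO1 17687 bases. The median density of the other genes with at least 3 peaks was 16.4 per 100 kb.

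By the pair of peak counts in the WT-named and HepG2 lists, 2 values per gene, the closest gene to both FAT1 and SPTBN1 was PIGR (7 in LS174T and 0 in HepG2, up to 65 reads). The closest to APP was the glucose transporter gene SLC2A1 (6 and 1, up to 100 reads in LS174T and 17 in HepG2), taken from 4 genes that were equally close. For CLDN4 it was the actin gene ACTG1 (3 and 3, up to 130 reads in LS174T and 28 in HepG2), taken from 3 equally close genes, and for SPINT2 it was HDGF (2 and 2, up to 20 reads in LS174T and 21 in HepG2), taken from 29 equally close genes by its length. ACTG1 has near-identical copies in the genome, and its reads are uncertain.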
